A study of Homo sapiens with 18 samples.

Results

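In gemcitabine-resistant pancreatic cancer cells, the response to thapsigargin was compared between cells that had lost most of their STIM1 mRNA and cells that had kept it. The cells, called GemR, derive from L3.6pl, a human pancreatic cancer line, and were kept in 64 nM gemcitabine, a deoxycytidine analogue. They received an siRNA against STIM1 (siSTIM1) or a control siRNA (siCont) for 48 h, and DMSO (vehicle) or 500 nM thapsigargin for the last 3 h. These 4 groups held 3 libraries each, so 12 of the 18 mRNA libraries of the series were chosen. The other 6 came from the parental L3.6pl cells (Par), not kept in gemcitabine and given siCont with vehicle or thapsigargin. The STIM1-dependent part of the response is the interaction: the thapsigargin log2 fold change with siSTIM1 minus that with siCont. GemR is 1 derivative line and STIM1 was lowered by siRNA in it alone, so nothing here compares siSTIM1 between lines. The labels number the replicates and say nothing on whether they were separate cultures, so p-values measure the spread between these libraries, which may be technical.

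Thapsigargin blocks SERCA, the pump that fills the endoplasmic reticulum (ER) with calcium, and the store then empties. STIM1 is the ER membrane protein that senses the loss and opens ORAI channels in the plasma membrane, which is called store-operated calcium entry. Calcium that enters binds calmodulin and activates the phosphatase calcineurin, which sends NFAT transcription factors to the nucleus, and calcium also activates kinases that switch on immediate early genes. The empty store by itself disturbs protein folding in the ER and sets off the unfolded protein response through PERK, ATF6 and IRE1. The same drug therefore acts on transcription both through calcium entry and through ER stress.

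STIM1, the siRNA target, was read before anything else. Its normalized count was 4976, 6294 and 6401 with siCont and vehicle, and 6079, 6307 and 6174 with siCont and thapsigargin. With siSTIM1 it was 390, 356 and 401 with vehicle and 272, 353 and 305 with thapsigargin. All siSTIM1 libraries stood far below all siCont libraries, as labelled. The mean with vehicle was 5890 in GemR with siCont, 382 in GemR with siSTIM1 and 457 in Par with siCont. The siCont level in GemR was thus far above that of the parental cells, and siSTIM1 left a level near the parental 1. The interaction of STIM1 itself was -0.39 ± 0.14 (adjusted p = 0.112), and it reached adjusted p = 0.0469 without siCont vehicle replicate 3 and adjusted p = 0.0452 without siSTIM1 thapsigargin replicate 2. Interactions are given on the log2(normalized count + 1) scale, which understates the change of low genes, with ± for the standard error from limma.

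Each of the 12 libraries held 10861201 to 16519239 reads, as recovered from the deposited values, and 13096 of 26485 genes had a mean of at least 10 and were tested. All 6 epithelial markers, among them keratins and EPCAM, were present, with a summed normalized count of 77125 to 109242 per library. Of 10 fibroblast markers 6, and of 12 immune and endothelial markers 9, had a mean under 10 in all GemR groups, and DCN, LUM, FAP, LYZ and MS4A1 were at 0 in all 12 libraries. In 2 libraries the deviations from the group mean fell with transcript length more than in the others: siCont vehicle replicate 1 (Spearman's rho = -0.616) and siSTIM1 thapsigargin replicate 1 (rho = -0.54). In siCont vehicle replicate 3 they rose (rho = 0.567). The interaction also moved with length (rho = -0.421 across 12419 genes, which are not independent replicates), and the median transcript was 4544 bases long for genes with a lower response, 2964 for those with a higher response and 3399 over all. The part of length in any 1 call was not tested. Total counts of calls are given below without both libraries that fell with length and with a length trend removed from each library. Values without both libraries are given for some lists and a few genes only.

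The interaction passed an adjusted p under 0.05 (limma, Benjamini-Hochberg over 13096 genes) for 577 genes, 4.41% of those tested. Of these, 380 (2.9%) had a lower and 197 (1.5%) a higher response with siSTIM1, and 140 (1.07%) differed by at least 2-fold, 119 of them lower. The shares of 2.9% and 1.5% are the background for the main limma counts of each gene list below, and not for its counts under other settings. Those are to be read beside the total of their own setting, which for DESeq2 is not reported here. Lists share members, so the same gene can be counted in several. The median interaction was -0.76 among the lower and 0.55 among the higher genes, with extremes of -2.65 and 2.26, against 0.00 over all genes. The split between the directions moved with scaling: it was 264 higher and 316 lower after quantile normalization, and 1589 and 1911 with a term for each library's length slope. Without both libraries that fell with length 626 genes passed, 236 higher and 390 lower. With the length trend removed, an alternative chosen after seeing the data, the count was 900, with 324 higher and 576 lower. The count was 1216 without siCont vehicle replicate 3, with 447 higher and 769 lower. It lay between 323 and 372 without any 1 of siCont thapsigargin replicates 1 and 3, siSTIM1 vehicle replicates 1 and 3, and siSTIM1 thapsigargin replicate 1. EdgeR, without siSTIM1 vehicle replicate 3, gave 346, with 135 higher and 211 lower. All 577 genes had the same sign as the difference between the siSTIM1 and siCont log2 fold changes in the authors' deposited table of each comparison. Those tables compare the same groups of this series, so the shared sign is no independent evidence for the calls.

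Most genes with a lower response were thapsigargin-induced genes that rose less. Of the 380, 145 (38.2%) rose past the threshold with either siRNA but by less with siSTIM1, and 127 (33.4%) passed as a rise with siCont only. Another 57 passed as a fall with siSTIM1 only, 32 moved in opposite directions and 17 fell in either case but more with siSTIM1. Among the 197 with a higher response, 83 (42.1%) passed as a fall with siCont only, 43 as a rise with siSTIM1 only, 36 rose more and 30 fell less with siSTIM1, and 5 moved in opposite directions. For comparison, thapsigargin changed 33.6% of all tested genes with siCont (17.9% rose and 15.8% fell) and 24.3% with siSTIM1 (12.5% rose and 11.9% fell). An interaction can lie in the treated or in the untreated cells. The siRNA groups differed past the threshold with thapsigargin only for 162 of the 380 genes (42.6%) and in vehicle only for 89 (23.4%), and for 83 and 56 of the 197. Over all tested genes the siRNA groups differed for 42.0% in vehicle and 36.6% with thapsigargin, so a changed baseline was common.

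**Figure D1:**
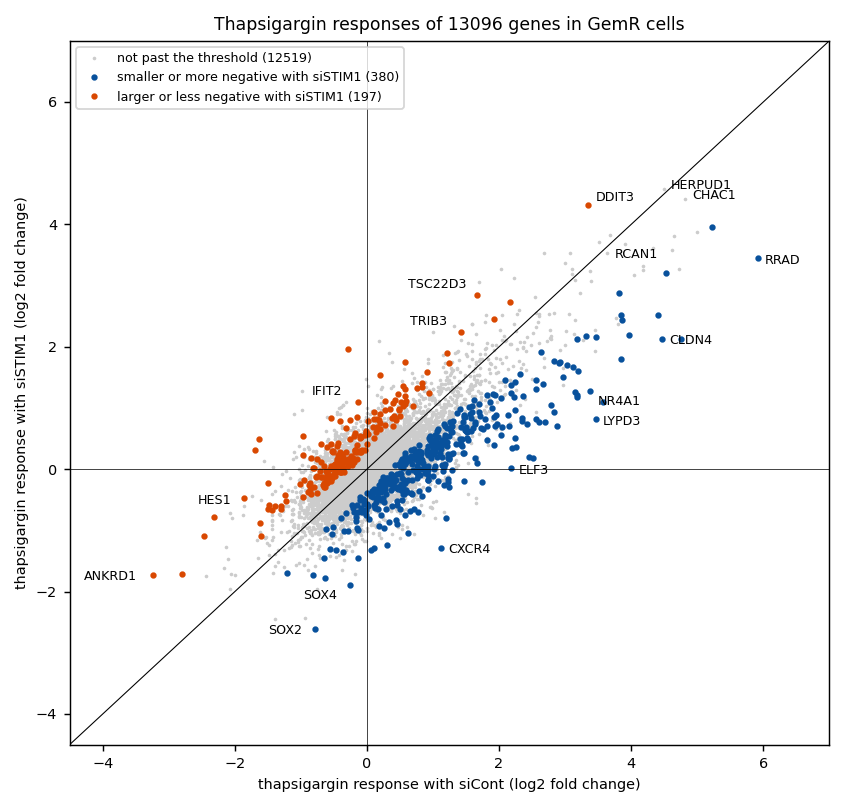
Thapsigargin log2 fold change with siCont (horizontal axis) against that with siSTIM1 (vertical axis) for the 13096 tested genes of GemR cells, with the diagonal of equal response. Blue points mark the 380 genes with a lower and orange points the 197 with a higher response with siSTIM1; most blue points lie to the right of 0, where genes rose with siCont.

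List counts at an unadjusted p under 0.05 are given without the share of all tested genes at that cutoff. The 4.41% above is for the adjusted p and is no background for them. None of 13 tested sensors and channels of store-operated entry passed in limma, where 1 higher and 2 lower had an unadjusted p under 0.05, nor in edgeR or DESeq2. Their interactions ranged from -0.42 ± 0.17 for HOMER1, a scaffold protein, to 0.30 ± 0.09 for SARAF, a brake on store-operated entry (adjusted p = 0.0655, and 0.0388 after quantile normalization). Without siCont vehicle replicate 3 SARAF had adjusted p = 0.0217 and the list 1 higher and 1 lower call, and without siSTIM1 thapsigargin replicate 2 it had 1 lower call, in both cases the target STIM1. Of 23 calcium pumps, stores and exchangers 1 was higher, CALR, the ER calcium buffer calreticulin (0.33), and 0 were lower (2 and 0 at an unadjusted p under 0.05, 0 and 0 in edgeR, 1 and 0 in DESeq2). That call was lost without any 1 of siCont vehicle replicate 2, the 3 siCont thapsigargin replicates, the 3 siSTIM1 vehicle replicates and siSTIM1 thapsigargin replicate 1. ORAI3, a channel subunit, differed in its baseline: its count was 67.9, 56 and 60.6 with siCont and vehicle and 185, 189 and 192 with siSTIM1 and vehicle, a 3.04-fold difference (adjusted p = 2.1e-07). Thapsigargin left this gap in place (80.9 against 198 on average), with an interaction of -0.34 ± 0.22.

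Among 20 tested genes for calcineurin, the NFAT factors and their inhibitors, 2 responded less with siSTIM1 and 0 more in limma, edgeR and DESeq2 alike, with 4 lower and 0 higher at an unadjusted p under 0.05. NFATC1, an NFAT factor that is itself an NFAT target, had counts of 31.2, 42 and 37.9 with siCont and vehicle and of 181, 159 and 164 with siCont and thapsigargin. With siSTIM1 the counts were 48.9, 41.7 and 48.7, and 78.1, 81.4 and 70.1. The thapsigargin libraries of siCont all lay above those of siSTIM1, and the interaction was -1.45 ± 0.24 (adjusted p = 0.00111). DYRK2, of a kinase family that phosphorylates NFAT, went from a mean of 308 to 478 with siCont and from 283 to 179 with siSTIM1 (-1.33 ± 0.24, adjusted p = 0.0024).

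NFATC2 rose from 123 ± 27.3 to 2209 ± 111 (SD, n = 3) with siCont and from 72.9 ± 17 to 700 ± 139 with siSTIM1. Its interaction of -0.92 ± 0.27 missed the threshold (adjusted p = 0.0592), and had adjusted p = 0.016, 0.0177 and 0.0406 without siCont vehicle replicate 3, siSTIM1 vehicle replicate 2 and siSTIM1 thapsigargin replicate 3. RCAN1, an NFAT-induced inhibitor of calcineurin, gave a different picture. Its counts rose from 167, 166 and 158 to 2113, 1932 and 2099 with siCont, and from 182, 227 and 211 to 2396, 2135 and 2681 with siSTIM1. That is a rise of 12.4-fold and 11.6-fold, with an interaction of -0.10 ± 0.17 (adjusted p = 0.762). The sign of this small value turned to 0.01 after quantile normalization.

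The list of calcineurin-NFAT target genes had the lowest median interaction of the lists with more than 2 tested genes, at -0.86 over 15, with 5 lower and 1 higher. Without both libraries that fell with length it had 6 lower and 0 higher and a median of -0.62. The 5 were NR4A1, EGR3, NFATC1, PTGS2 and NR4A2, and the 1 was EGR2, a call that was lost without any 1 of siCont vehicle replicate 1, siCont thapsigargin replicate 2, siSTIM1 vehicle replicate 1 and siSTIM1 thapsigargin replicates 1 and 2. The list was chosen with results of these data in view, and its count is a description. NR4A1, an orphan nuclear receptor induced within minutes of a calcium signal, had counts of 532, 649 and 586 with siCont and vehicle and of 5816, 6220 and 6307 with thapsigargin. With siSTIM1 it had 831, 905 and 913, then 2209, 1765 and 2547. The siSTIM1 libraries were the higher ones before treatment and the lower ones after it, without overlap in either case. Its response fell from 3.38 to 1.28 on the log2 scale (interaction -2.09 ± 0.20, adjusted p = 2.5e-06), and the interaction was -2.04 without both libraries that fell with length.

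NR4A2, its close relative, rose from 37.8 to 1396 on average with siCont and from 58 to 916 with siSTIM1 (-1.26 ± 0.25, adjusted p = 0.00491). For NR4A3, the remaining member, the means were 61.8 and 1139 with siCont and 43.9 and 451 with siSTIM1, and the interaction of -0.86 ± 0.31 did not pass (adjusted p = 0.122). PTGS2, the inducible cyclooxygenase COX-2, had counts of 380, 461 and 481 and of 6232, 5986 and 6901 with siCont. With siSTIM1 they were 823, 731 and 870, and 3500, 4386 and 5493. Again the siSTIM1 libraries began higher and ended lower (-1.41 ± 0.18, adjusted p = 9.6e-05). PTGER4, a receptor for the prostaglandin E2 that this enzyme helps to make, rose from a mean of 178 to 493 with siCont, while with siSTIM1 the means were 257 and 227 (-1.66 ± 0.15, adjusted p = 2.5e-06).

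**Figure D2:**
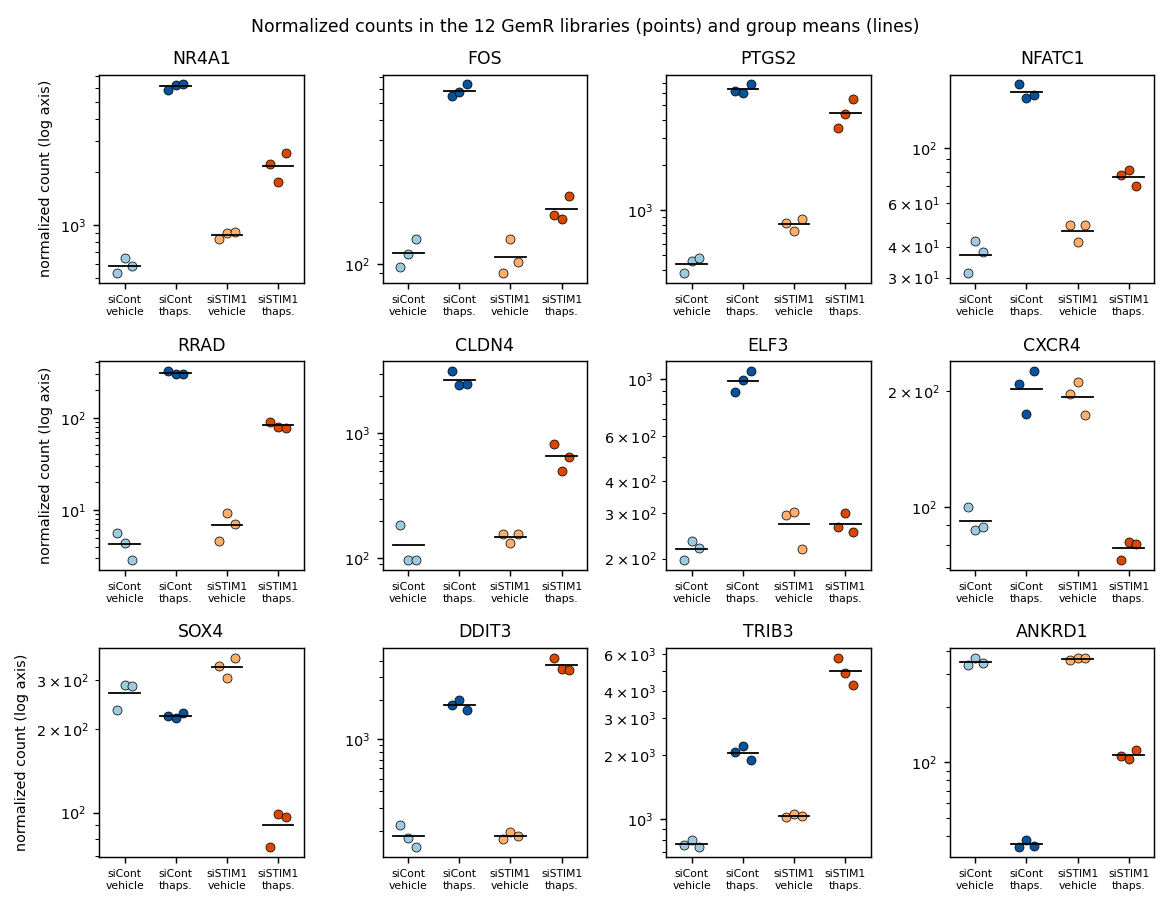
Normalized counts (log axis, each panel with its own range) of 12 genes in the 12 GemR libraries, by siRNA and treatment; points are libraries and lines are group means. NR4A1, FOS, PTGS2, NFATC1, RRAD, CLDN4 and ELF3 reach lower levels with thapsigargin in siSTIM1 than in siCont, DDIT3, TRIB3 and ANKRD1 higher ones, and CXCR4 and SOX4 are lower with thapsigargin than with vehicle in siSTIM1.

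The list of immediate early transcription factors, of a class that cells switch on without new protein synthesis, split in direction. It also holds early genes that are not transcription factors, among them IER3, ARC and CYR61. Of 29 tested, 8 had a lower and 5 a higher response with siSTIM1, with a median of -0.17. EdgeR called 4 and 3. A higher response includes a smaller fall, as for KLF10 below. The lower count was 5 without siSTIM1 vehicle replicate 1 and without siSTIM1 thapsigargin replicate 2. The higher count was 3 without siCont vehicle replicate 1, siCont thapsigargin replicate 2 or siSTIM1 thapsigargin replicate 1. FOS, a subunit of AP-1, had counts of 96.9, 111 and 132 and then of 648, 678 and 744 with siCont. With siSTIM1 it had 89.9, 132 and 102 and then 173, 164 and 214. Vehicle libraries overlapped between the siRNAs and thapsigargin libraries did not, so the difference lay in the treated cells (-1.84 ± 0.20, adjusted p = 1.2e-05).

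FOSB, another AP-1 subunit, differed before treatment too. Its counts were 188, 187 and 205, then 1990, 2147 and 2283 with siCont, and 48.9, 53.9 and 53.6, then 176, 231 and 325 with siSTIM1. Of the treated siSTIM1 libraries 1 lay below and 2 above all untreated siCont libraries, and the interaction was -1.30 ± 0.29 (adjusted p = 0.0137; 0.105 in edgeR without siSTIM1 vehicle replicate 3). EGR3, an early growth response factor, showed the same order, with means of 35.2 and 562 for siCont and 10.2 and 52.2 for siSTIM1 (-1.77 ± 0.41, adjusted p = 0.0179). It had adjusted p = 0.053 without siCont thapsigargin replicate 3, 0.0608 without siSTIM1 vehicle replicate 1 and 0.0501 without siSTIM1 thapsigargin replicate 2, and 0.124 in edgeR. KLF4, a zinc finger factor of epithelia, rose from 250 to 2280 with siCont and from 201 to 878 with siSTIM1 (-1.06 ± 0.16, adjusted p = 4.6e-04).

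EGR1, the relative of EGR3 best known as a growth factor response gene, went the other way. Its counts were 1016, 1199 and 1191 with vehicle and 901, 1000 and 1095 with thapsigargin in siCont, which overlap. In siSTIM1 they were 798, 836 and 773, and 1201, 1110 and 1319, which do not (interaction 0.78 ± 0.12, adjusted p = 6.8e-04). EGR2 was low, with means of 34.9 and 26.1 for siCont and 7.63 and 13.9 for siSTIM1. Its interaction of 1.20 ± 0.30 (adjusted p = 0.0255) had adjusted p of 0.0524 to 0.0693 without 1 of the 5 libraries named above, 0.0723 in edgeR and 0.133 in DESeq2. IER3, an early gene linked to survival, rose from a mean of 4488 to 6441 with siCont and from 2579 to 6615 with siSTIM1, a difference that lay in the baseline (0.81 ± 0.16, adjusted p = 0.00416). KLF10, a TGF-beta-inducible repressor, fell from 1118 to 424 with siCont and from 1231 to 811 with siSTIM1 (0.79 ± 0.11, adjusted p = 2.2e-04).

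The sequences before 6 gene starts are shown because FOS, FOSB and PTGS2 had lower responses with siSTIM1 while EGR1 and the ER stress genes DDIT3 and TRIB3, described below, had higher ones. Each is the 250 bases before the gene start, 5′ to 3′ on the gene's strand, from RefSeq (GRCh38.p14). FOS is at chr14:75278578-75278827 (plus strand), FOSB at chr19:45467746-45467995 (plus), PTGS2 at chr1:186680424-186680673 (minus), EGR1 at chr5:138465229-138465478 (plus), DDIT3 at chr12:57520515-57520764 (minus) and TRIB3 at chr20:381045-381294 (plus). Capitals mark matches on either strand to the NFAT core GGAAA, the AP-1 site TGANTCA, the cAMP response element TGACGTCA, its shorter form TGACG, and the ATF4-CHOP element TGATGNAA.
FOS: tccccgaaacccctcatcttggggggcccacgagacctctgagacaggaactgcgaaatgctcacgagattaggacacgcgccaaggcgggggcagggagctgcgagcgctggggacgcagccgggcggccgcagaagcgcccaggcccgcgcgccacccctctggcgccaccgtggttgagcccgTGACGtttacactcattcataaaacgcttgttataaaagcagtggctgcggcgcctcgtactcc
FOSB: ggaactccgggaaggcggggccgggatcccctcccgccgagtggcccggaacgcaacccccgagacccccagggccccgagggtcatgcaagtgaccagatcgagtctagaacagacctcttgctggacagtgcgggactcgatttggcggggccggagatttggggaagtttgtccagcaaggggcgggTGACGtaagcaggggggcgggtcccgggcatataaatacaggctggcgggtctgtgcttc
PTGS2: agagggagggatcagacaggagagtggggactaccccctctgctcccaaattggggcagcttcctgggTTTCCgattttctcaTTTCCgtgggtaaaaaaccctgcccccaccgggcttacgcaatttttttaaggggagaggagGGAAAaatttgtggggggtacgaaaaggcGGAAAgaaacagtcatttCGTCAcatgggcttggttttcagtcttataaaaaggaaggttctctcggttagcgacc
EGR1: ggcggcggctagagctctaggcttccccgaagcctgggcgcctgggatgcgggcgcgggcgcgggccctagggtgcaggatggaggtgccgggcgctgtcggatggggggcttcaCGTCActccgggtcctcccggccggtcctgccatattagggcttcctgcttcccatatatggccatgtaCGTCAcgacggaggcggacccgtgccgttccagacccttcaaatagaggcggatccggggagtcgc
DDIT3: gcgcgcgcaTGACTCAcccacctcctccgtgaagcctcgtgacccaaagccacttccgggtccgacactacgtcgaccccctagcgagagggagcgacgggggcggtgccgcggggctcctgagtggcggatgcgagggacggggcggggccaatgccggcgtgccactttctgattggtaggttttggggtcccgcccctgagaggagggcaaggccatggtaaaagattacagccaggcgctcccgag
TRIB3: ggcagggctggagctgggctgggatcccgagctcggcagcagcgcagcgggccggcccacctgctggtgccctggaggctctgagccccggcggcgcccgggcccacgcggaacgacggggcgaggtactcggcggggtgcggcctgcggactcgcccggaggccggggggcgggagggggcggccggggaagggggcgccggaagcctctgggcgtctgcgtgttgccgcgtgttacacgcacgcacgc

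The shorter cAMP response element stood 64 to 60 bases before the FOS start and 60 to 56 bases before the FOSB start. It stood on the other strand 58 to 54 bases before the PTGS2 start, and on the other strand at both 135 to 131 and 66 to 62 bases before the EGR1 start. Genes whose interactions had opposite signs thus held the same short element. PTGS2 also held 4 matches to the NFAT core, and DDIT3 held 1 AP-1 match, 241 to 235 bases before its start. TRIB3 held none of these motifs. Short motifs are common: among 14342 windows of tested genes TGACG was in 27.6%, against 26.4% of windows of genes with a lower and 34.9% with a higher response. It was in 6 of the 10 windows (60.0%) of the 8 genes with a lower response from the immediate early and calcineurin-NFAT lists, and in 4 of 17 (23.5%) of the PERK-ATF4-CHOP genes with a higher one. GGAAA was in 53.4%, 52.9% and 59.5%, and TGANTCA in 4.45%, 6.39% and 4.62%. TGACGTCA, which contains TGACG, was in 2.54%, 1.98% and 3.59%, and TGATGNAA in 1.65%, 1.1% and 2.56%. Other motifs searched were the CCAAT box CCAAT (33.0%, 32.2% and 36.9%), CCACG of the ER stress element (42.9%, 35.9% and 45.1%) and an NF-kB pattern (68.2%, 69.6% and 64.6%). In the same 10 and 17 windows of list genes, GGAAA was in 5 and 2, TGANTCA in 0 and 3, and TGACGTCA in 1 and 0. TGATGNAA was in 0 and 1, CCAAT in 2 and 8, CCACG in 4 and 9, and the NF-kB pattern in 8 and 13. Both sets are small and were chosen by these data. A match is a description of the letters and not evidence of binding.

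Of 2 tested RGK GTPases 1 had a lower response with siSTIM1. RRAD, a small GTPase of the RGK family that inhibits voltage-gated calcium channels, had counts of 5.57, 4.38 and 2.84 with siCont and vehicle and of 323, 301 and 302 with thapsigargin. With siSTIM1 it had 4.55, 9.15 and 6.95, then 90.9, 79 and 78.2. It was near the lower limit of the data in all vehicle libraries and high only with thapsigargin, and the interaction was -2.47 ± 0.43 (adjusted p = 0.00172). GEM, of the same family, rose from 68 to 1367 on average with siCont and from 49.8 to 611 with siSTIM1, and its -0.72 ± 0.27 did not pass in limma (adjusted p = 0.148), though it did in edgeR (adjusted p = 0.049) and DESeq2 (adjusted p = 0.00491), both without siSTIM1 vehicle replicate 3.

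Of 20 tested cAMP and CREB-responsive genes 6 were lower and 1 higher (2 higher without siCont thapsigargin replicate 3), and of 21 MAP kinase feedback genes 4 were lower and 1, IER3, was higher. The lower cAMP and CREB genes include NR4A1, NR4A2 and FOSB, which the immediate early list also counts, as it does IER3. DUSP1 is counted in both lists here. DUSP1, a phosphatase that turns off MAP kinases, had counts of 1734, 1343 and 1433 and of 12406, 10927 and 10861 with siCont. With siSTIM1 they were 2005, 2049 and 2318, and 7460, 5932 and 8184. It began higher and ended lower with siSTIM1 (-1.18 ± 0.24, adjusted p = 0.0062). TRIB1, a pseudokinase that guides proteins to degradation, went from 315 to 1300 and from 472 to 765 on average (-1.35 ± 0.13, adjusted p = 2.5e-06). DUSP7, a phosphatase for ERK, rose from 1048 to 1669 with siCont and fell from 756 to 578 with siSTIM1 (-1.06 ± 0.10, adjusted p = 2.5e-06). INHBA, which encodes a subunit of activin, rose from 7.3 to 52 with siCont and had means of 12.9 and 23 with siSTIM1 (-1.92 ± 0.43, adjusted p = 0.0147, and 0.0727 without both libraries that fell with length). None of 12 EGF receptor ligands and receptors passed in limma, where 2 lower had an unadjusted p under 0.05, or in edgeR or DESeq2, and 1 was lower without siCont vehicle replicate 3.

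Some chemokine and cytokine genes rose less with siSTIM1, and for CXCL8 the difference did not pass. Of 16 tested, 6 responded less and 0 more in limma, where 1 higher and 7 lower had an unadjusted p under 0.05, and edgeR and DESeq2 each called 4 lower and 0 higher. The 6 were CXCR4, IL24, CXCL3, CXCL1, CSF1 and LIF. CXCL3, a neutrophil attractant, had counts of 24.5, 7.88 and 11.4, then of 314, 274 and 310 with siCont. With siSTIM1 they were 27.3, 22.4 and 24.8, then 174, 118 and 152 (-1.89 ± 0.35, adjusted p = 0.00358). CXCL1, from the same cluster of genes, rose from 139 to 1024 on average with siCont and from 118 to 395 with siSTIM1 (-1.17 ± 0.24, adjusted p = 0.00693). CXCL8, the chemokine interleukin 8, rose from 998 to 5717 and from 861 to 4306, with an interaction of -0.23 ± 0.28 (adjusted p = 0.65).

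CXCR4, the receptor for the chemokine CXCL12, turned in direction. Its counts were 100, 87.6 and 89 with vehicle and 208, 174 and 225 with thapsigargin in siCont, and 196, 210 and 173, then 73.1, 81.4 and 80.6 in siSTIM1. Thapsigargin raised it above all vehicle libraries with siCont and lowered it below all vehicle libraries with siSTIM1 (interaction -2.41 ± 0.16, adjusted p = 4.1e-08). CSF1, a growth factor for macrophages, rose from 101 to 193 with siCont and had means of 153 and 143 with siSTIM1 (-1.03 ± 0.19, adjusted p = 0.00366). Of 20 tested NF-kB subunits and feedback genes, 4 were lower and 0 higher in limma, with 2 higher and 6 lower at an unadjusted p under 0.05 and 2 lower in edgeR and DESeq2 each. The count was 2 without any 1 of siCont thapsigargin replicates 1 and 3, siSTIM1 vehicle replicates 1 and 3, and siSTIM1 thapsigargin replicate 2, and 1 higher gene passed without siCont vehicle replicate 3 or siSTIM1 thapsigargin replicate 2. TNFAIP2, a TNF-induced gene, rose from 1697 to 3805 with siCont and had means of 2364 and 2427 with siSTIM1 (-1.13 ± 0.12, adjusted p = 1.2e-05).

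Several epithelial genes had interactions among the lowest. Of 25 tested tight junction and epithelial genes 7 responded less and 1 more with siSTIM1, and without both libraries that fell with length 8 and 1. CLDN4, a claudin of tight junctions, had counts of 186, 96.3 and 97.5 with vehicle and of 3169, 2432 and 2480 with thapsigargin in siCont. In siSTIM1 they were 155, 132 and 155, and 815, 504 and 652. Vehicle libraries overlapped, and each treated siCont library held at least 2432 where the highest treated siSTIM1 library held 815 (-2.33 ± 0.34, adjusted p = 3.4e-04). CLDN3, a related claudin, rose from 117 to 693 and from 132 to 370 on average (-1.10 ± 0.23, adjusted p = 0.00845; 0.0749 in edgeR without siSTIM1 vehicle replicate 3). CLDN1 was the 1 higher gene: its mean went from 8981 to 6968 with siCont and from 10049 to 10152 with siSTIM1 (0.38 ± 0.09, adjusted p = 0.0155; 0.111 after quantile normalization). In a bulk sample, fewer cells with a transcript and less transcript per cell cannot be told apart.

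ELF3, an epithelial ETS transcription factor, had counts of 197, 235 and 220 and then of 894, 993 and 1079 with siCont. With siSTIM1 they were 295, 304 and 218, and 265, 302 and 253, which overlap. The rise with siCont had no counterpart past the threshold with siSTIM1 (0.02 against 2.18 on the log2 scale, interaction -2.17 ± 0.18, adjusted p = 6.7e-07). GRHL3, a grainyhead factor of barrier epithelia, rose from 14.7 to 52.2 with siCont and had means of 23.7 and 20 with siSTIM1 (-1.96 ± 0.38, adjusted p = 0.00501).

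LYPD3 and CDH1 gave large interactions of another kind, since the siRNA groups met with thapsigargin and differed without it. LYPD3, a membrane-anchored surface protein, had the lowest interaction of the named genes (-2.65 ± 0.27, adjusted p = 7.1e-06). Its counts were 18.9, 13.1 and 16.1, then 209, 176 and 174 with siCont, and 92.2, 87.4 and 108, then 209, 142 and 162 with siSTIM1. CDH1, which encodes E-cadherin, went from 81.3, 81.4 and 89 to 463, 386 and 444 with siCont and from 254, 250 and 258 to 423, 440 and 500 with siSTIM1 (-1.51 ± 0.20, adjusted p = 1.1e-04). In both genes the treated libraries overlapped between the siRNAs and the vehicle libraries did not. ABCA1, a cholesterol exporter, followed this order with means of 127 and 663 for siCont and 729 and 859 for siSTIM1 (-2.24 ± 0.34, adjusted p = 5.2e-04).

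Among 15 tested mesenchymal genes 1 was lower and 1 higher, and 2 were higher without siCont vehicle replicate 1. The higher gene was SNAI2, a repressor of E-cadherin. SNAI2 fell from 1452 to 1101 with siCont and had means of 826 and 914 with siSTIM1 (0.54 ± 0.12, adjusted p = 0.015).

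Of 24 tested SOX and Wnt genes 7 had a lower response with siSTIM1 and 0 a higher one in limma, with a median of -0.51, and 13 lower and 0 higher had an unadjusted p under 0.05. EdgeR and DESeq2 each called 6 lower and 0 higher, and without both libraries that fell with length 7 and 0. SOX4, a transcription factor of progenitor cells, had counts of 235, 289 and 287 with vehicle and 224, 220 and 228 with thapsigargin in siCont. In siSTIM1 they were 338, 307 and 362, then 75.1, 98.6 and 96.7. Thapsigargin lowered SOX4 by 1.89 on the log2 scale with siSTIM1 (adjusted p = 9.2e-10), while its log2 fold change with siCont was -0.26 (adjusted p = 0.119; interaction -1.63 ± 0.18, adjusted p = 1.5e-05). SOX2, a stem cell factor, fell with either siRNA and more with siSTIM1: from 88, 122 and 124 to 65.8, 60.8 and 64.3, against from 130, 119 and 113 to 15.8, 32.9 and 12.9 (-1.83 ± 0.37, adjusted p = 0.00697). SOX9, a factor of pancreatic duct cells, rose with siCont from 460 to 966 and had means of 401 and 345 with siSTIM1 (-1.27 ± 0.18, adjusted p = 2.5e-04).

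Among the Wnt receptors and ligands of that list LGR4 and WNT7B were lower, while LGR5 (-0.472), WNT5A (-1.685) and WNT7A (0.065) did not pass. FZD10, a Wnt receptor outside the list that was named by size, went from 13.4, 23.6 and 28.4 to 270, 248 and 260 with siCont and from 23.9, 28.5 and 28.8 to 73.1, 56.3 and 49.2 with siSTIM1 (-2.48 ± 0.37, adjusted p = 4.8e-04). WNT9A, a ligand also named by size, went from 17.4 to 265 and from 8.28 to 30.8 on average (-2.05 ± 0.33, adjusted p = 7.8e-04; 0.133 in edgeR without siSTIM1 vehicle replicate 3). LGR4, a receptor for R-spondins, rose from 549 to 796 with siCont and fell from 835 to 634 with siSTIM1 (-0.96 ± 0.18, adjusted p = 0.00382).

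Notch pathway genes were named by size and moved in different directions. NRARP, an inhibitor that Notch induces, had counts of 336, 315 and 300 and of 540, 475 and 453 with siCont, and of 181, 222 and 183 and of 97.8, 85.3 and 98.3 with siSTIM1. It rose with siCont and fell with siSTIM1, without overlap (-1.67 ± 0.14, adjusted p = 1.2e-06). HES1, a repressor under Notch, had 568, 490 and 462 and then 132, 150 and 135 with siCont, and 383, 382 and 334 and then 277, 280 and 233 with siSTIM1. It fell in both and by less with siSTIM1 (1.38 ± 0.15, adjusted p = 1.6e-05). Outside that pathway, RHOV, an atypical small GTPase, had means of 102 and 126 with siCont and fell from 153 to 65 with siSTIM1 (-1.54 ± 0.24, adjusted p = 5.3e-04). CDKN1C, the cell cycle inhibitor p57, rose from 12.1 to 94.5 with siCont and had means of 7.77 and 13.6 with siSTIM1 (-2.16 ± 0.43, adjusted p = 0.00523). KCTD12, an auxiliary protein of GABA-B receptors, rose from 313 to 705 with siCont and fell from 280 to 163 with siSTIM1 (-1.99 ± 0.21, adjusted p = 1.2e-05).

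Part of the PERK branch of the ER stress response had a larger response with siSTIM1. Of 43 tested PERK-ATF4-CHOP genes 15 responded more and 0 less in limma, with a median interaction of 0.20. At an unadjusted p under 0.05 there were 19 higher and 2 lower, edgeR called 11 higher and 0 lower and DESeq2 15 and 0. Without both libraries that fell with length the counts were 18 higher and 1 lower, and with only the 12 GemR libraries in the fit 8 and 0. DDIT3, the transcription factor CHOP, had counts of 222, 175 and 150 with vehicle and 1840, 2014 and 1692 with thapsigargin in siCont. In siSTIM1 they were 173, 194 and 182, and 4225, 3436 and 3401. The vehicle libraries overlapped, and all treated siSTIM1 libraries lay above all treated siCont libraries (0.97 ± 0.16, adjusted p = 0.00148).

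TRIB3, a pseudokinase that CHOP and ATF4 induce, had counts of 756, 804 and 741 and of 2066, 2208 and 1903 with siCont, and of 1024, 1064 and 1035 and of 5746, 4881 and 4263 with siSTIM1. It was higher with siSTIM1 before treatment and rose by a larger factor (0.82 ± 0.12, adjusted p = 4.6e-04). STC2, a secreted glycoprotein of the stress response, rose 4.5-fold with siCont and 6.62-fold with siSTIM1, from 1531, 1590 and 1578 to 7023, 6925 and 7223 and from 1731, 1695 and 1631 to 11283, 11138 and 11081. Some enzymes of amino acid and one-carbon metabolism in the list passed and others did not. The interaction was 0.56 ± 0.08 for MTHFD2, a mitochondrial folate enzyme, 0.49 ± 0.09 for ASNS, asparagine synthetase, and 0.50 ± 0.08 for GARS, which charges tRNA with glycine. It was 0.201 for PHGDH and 0.200 for SHMT2, which act in serine synthesis and use, and 0.327 for CBS, cystathionine beta-synthase, and these did not pass.

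SLC3A2 and SLC7A5, partners in an amino acid transporter, had a lower baseline and a higher response with siSTIM1. The interactions of SLC7A11, SLC7A1 and SLC38A2, other transporters of the same list, were 0.281, 0.132 and -0.215 and did not pass. SLC3A2, the shared heavy chain of several transporters, had counts of 23832, 22956 and 20994 with vehicle and 22528, 24060 and 22170 with thapsigargin in siCont. In siSTIM1 they were 6292, 6566 and 5907, then 11963, 10260 and 10250. The siSTIM1 libraries were lower throughout, and only there did thapsigargin raise the gene past the threshold (0.77 ± 0.10, adjusted p = 1.0e-04). SLC7A5, its leucine-carrying partner, had means of 49745 and 55807 with siCont and of 7220 and 12664 with siSTIM1 (0.63 ± 0.14, adjusted p = 0.016; 0.0532 without siCont thapsigargin replicate 1 and 0.097 after quantile normalization). TXNIP, an arrestin-like protein that binds thioredoxin, fell with siCont from 207, 246 and 254 to 139, 161 and 133 and rose with siSTIM1 from 62.6, 61 and 50.6 to 97.8, 79.8 and 59.6, where the groups overlapped (1.12 ± 0.21, adjusted p = 0.00309).

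For several leading stress genes the difference did not pass. ATF4 mRNA rose from 3287 ± 355 to 8057 ± 238 (SD, n = 3) with siCont and from 3676 ± 163 to 8915 ± 788 with siSTIM1, with an interaction of -0.02 ± 0.10 whose sign changed with the setting. CHAC1, an ATF4 target whose product breaks down glutathione, rose 28.2-fold and 21.2-fold (-0.41 ± 0.16, adjusted p = 0.157; adjusted p = 0.0393 without both libraries that fell with length). HERPUD1, of ER-associated degradation, rose 22.5-fold and 24-fold (0.09 ± 0.09, adjusted p = 0.571). Of 39 tested ATF6-XBP1 chaperone and degradation genes 2 responded more and 0 less in limma, with 15 higher and 0 lower at an unadjusted p under 0.05. EdgeR called 0 and DESeq2 5 higher. Limma called 10 without siCont vehicle replicate 3, where 447 of all 13096 genes were higher. It called 0 without any 1 of the 3 siCont thapsigargin replicates, the 3 siSTIM1 vehicle replicates and siSTIM1 thapsigargin replicate 1.

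HSPA5, the main ER chaperone BiP, had counts of 13589, 12494 and 12112 and of 64230, 63110 and 61009 with siCont, and of 13574, 13410 and 13417 and of 87374, 79392 and 78014 with siSTIM1. The treated siSTIM1 libraries were all above the treated siCont libraries. The interaction of 0.29 ± 0.08 lay beside the threshold (adjusted p = 0.0546), with adjusted p = 0.0274 without siCont vehicle replicate 3 0.0477 without siSTIM1 thapsigargin replicate 3 and 0.0367 in DESeq2, and it turned to -0.22 after quantile normalization.

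**Figure D3:**
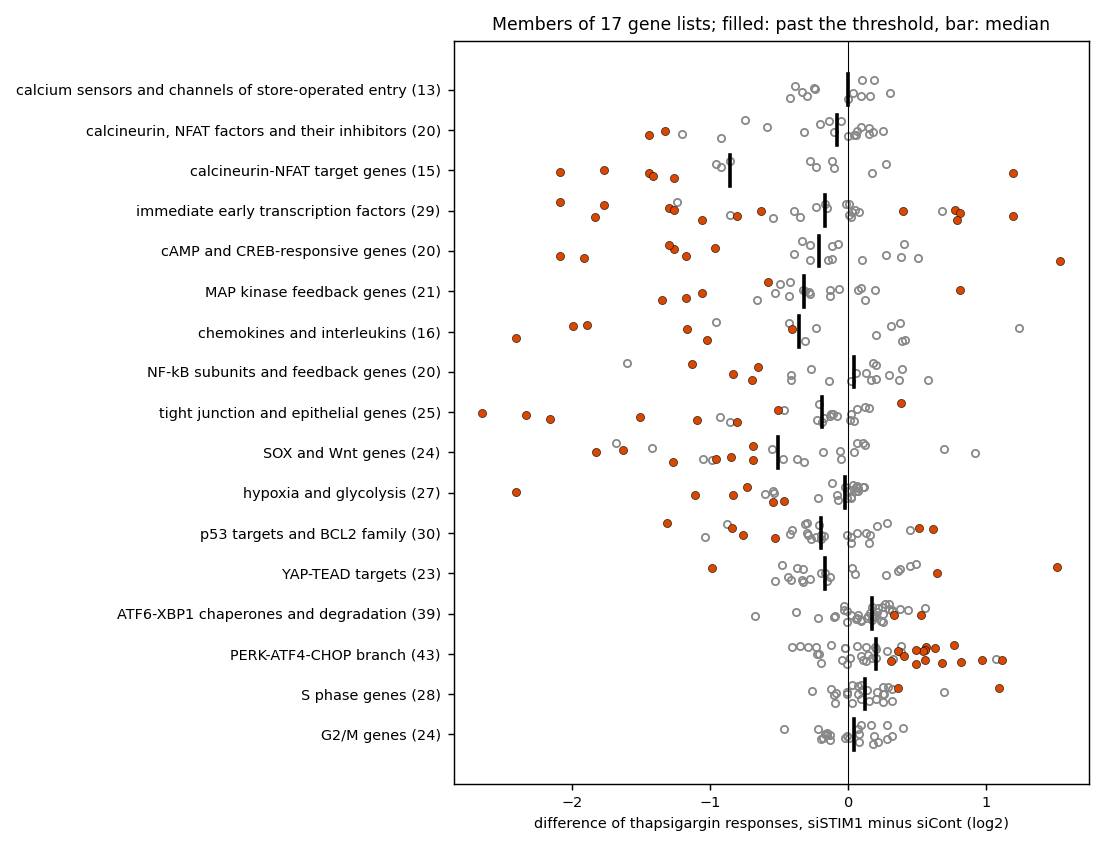
Interaction (siSTIM1 minus siCont thapsigargin response, log2) of each tested member of 17 gene lists, with the number tested in brackets; filled points passed the adjusted p of 0.05, open points did not, and black bars are list medians. The calcineurin-NFAT targets have a median of -0.86 and the PERK-ATF4-CHOP branch one of 0.20.

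A second set of higher interactions came from genes that thapsigargin lowered with siCont. ANKRD1, a muscle ankyrin repeat protein and a target of the YAP-TEAD complex, had counts of 336, 368 and 343 with vehicle and 34.8, 37.9 and 35.4 with thapsigargin in siCont. In siSTIM1 they were 356, 367 and 367, and 108, 104 and 116. Vehicle libraries overlapped, and the fall was 9.46-fold with siCont and 3.31-fold with siSTIM1 (1.52 ± 0.12, adjusted p = 5.4e-07). PDE7B, a cyclic AMP phosphodiesterase, fell from 465, 590 and 544 to 107, 114 and 95.4 and from 848, 821 and 829 to 456, 548 and 455 (1.54 ± 0.15, adjusted p = 2.5e-06). CYP24A1, which degrades active vitamin D, fell from 254 to 44.5 and from 733 to 342 on average (1.38 ± 0.22, adjusted p = 7.8e-04). FAM111B, a protease of dividing cells, fell from 598 to 85.3 and from 1056 to 324 (1.09 ± 0.17, adjusted p = 6.1e-04).

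Of 23 tested YAP-TEAD targets 2 were higher and 1 lower, and AJUBA, a LIM domain protein, was the other higher one: it fell from 3324 to 1959 with siCont and had means of 3209 and 2967 with siSTIM1 (0.65 ± 0.10, adjusted p = 5.4e-04). The higher count of that list was 5 without siCont vehicle replicate 1, and the lower count was 3 without siCont vehicle replicate 3. Some genes rose past the threshold with siSTIM1 only. IFIT2, an interferon-induced antiviral protein, had counts of 395, 328 and 397 and of 333, 313 and 375 with siCont, and of 391, 353 and 439 and of 799, 902 and 834 with siSTIM1 (1.23 ± 0.14, adjusted p = 2.9e-05). Only its treated siSTIM1 libraries stood apart. Of 19 tested interferon-stimulated genes 2 were higher and 0 lower in limma (3 and 3 at an unadjusted p under 0.05, and 3 higher and 0 lower in edgeR and DESeq2 each). The higher count was 1 without any 1 of siCont thapsigargin replicates 1 and 2, siSTIM1 vehicle replicates 1 and 2, and siSTIM1 thapsigargin replicates 1 and 2, and 1 lower gene passed without siCont vehicle replicates 1 or 3 or siSTIM1 thapsigargin replicate 1. TSC22D3, the glucocorticoid-induced leucine zipper, rose from 194 to 617 and from 124 to 908 on average (1.18 ± 0.13, adjusted p = 1.2e-05). CDH5, a cadherin best known from endothelium, had counts of 79.1, 80.6 and 85.2 and of 97.8, 80.1 and 105 with siCont, and of 35.3, 22.4 and 40.7 and of 95.9, 82.9 and 105 with siSTIM1, a lower baseline that met the siCont level with thapsigargin (1.34 ± 0.27, adjusted p = 0.00668). The summed count of the 12 immune and endothelial markers, CDH5 among them, was 347 to 387 and 408 to 431 with siCont and 190 to 271 and 271 to 289 with siSTIM1, without and with thapsigargin. That of the 10 fibroblast markers was 1215 to 1456, 1588 to 1808, 1130 to 1303 and 1597 to 1872 in the same order, and the part of either in these results was not tested.

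Of 30 tested p53 targets and BCL2 family genes 4 were lower and 2 higher, and the lower count was 2 without any 1 of siCont vehicle replicate 2, the 3 siCont thapsigargin replicates, and siSTIM1 vehicle replicates 1 and 3. The higher count was 3 without siCont vehicle replicate 2 and 1 without any other 1 library except siCont vehicle replicate 3 and siSTIM1 thapsigargin replicate 2. BTG2, an inhibitor of proliferation, rose from 79.6 to 195 with siCont and had means of 92.3 and 90.7 with siSTIM1 (-1.31 ± 0.17, adjusted p = 1.2e-04). PLK3, a stress-induced kinase, rose from 410 to 1345 and from 438 to 798 (-0.84 ± 0.13, adjusted p = 6.7e-04). BCL2L1, which encodes the survival factor BCL-XL, fell from 4395 to 2363 and from 5565 to 4301 (0.52 ± 0.11, adjusted p = 0.00916).

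Hypoxia and glycolysis genes had 6 lower and 0 higher of 27 in limma, with 7 lower and 0 higher at an unadjusted p under 0.05, 4 lower in edgeR and 5 in DESeq2, and a median of -0.02. CXCR4, also counted in the chemokine list, was among the lower genes. SLC2A1, the glucose transporter GLUT1, had counts of 27106, 33387 and 33542 and of 30917, 32894 and 31393 with siCont, and of 15073, 15411 and 14796 and of 8208, 9090 and 8507 with siSTIM1. It was lower with siSTIM1 throughout and fell further with thapsigargin only there (-0.84 ± 0.11, adjusted p = 9.4e-05). EGLN3, an oxygen-sensing hydroxylase, rose from 278 to 530 with siCont and had means of 152 and 136 with siSTIM1 (-1.11 ± 0.19, adjusted p = 0.00168), and NDRG1, a stress-induced gene, rose from 1133 to 4357 and from 1343 to 3114 (-0.73 ± 0.13, adjusted p = 0.00168).

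Of 28 tested S phase genes 2 were higher and 0 lower in limma (9 and 0 at an unadjusted p under 0.05, 1 and 0 in edgeR, 3 and 0 in DESeq2), and 1 was higher without any 1 of siCont vehicle replicate 2, siCont thapsigargin replicates 1 and 2, siSTIM1 vehicle replicates 1 and 3, and siSTIM1 thapsigargin replicate 1. Of 24 G2/M genes 0 passed in limma, edgeR or DESeq2, with 3 higher and 2 lower at an unadjusted p under 0.05. Without siCont vehicle replicate 3 there were 2 higher and 1 lower, without siSTIM1 vehicle replicate 2 there was 1 higher and without siSTIM1 thapsigargin replicate 2 there was 1 lower. The sterol and lipid synthesis list had 2 lower and 0 higher of 26 in limma (8 and 1 at an unadjusted p under 0.05, 1 and 0 in edgeR, 2 and 1 in DESeq2). The lower count was 4 without siCont vehicle replicate 3 and 1 without any 1 of siCont vehicle replicate 2, the 3 siCont thapsigargin replicates, siSTIM1 vehicle replicates 1 and 3, and siSTIM1 thapsigargin replicate 1, and 1 higher gene passed without siCont vehicle replicate 2. Of 18 genes for gemcitabine uptake and metabolism 1 was higher, TK2, a mitochondrial thymidine kinase (0.42), and 1 lower. TK2 was lost without any 1 of the siCont thapsigargin and siSTIM1 vehicle replicates and siSTIM1 thapsigargin replicate 2, and 2 were lower without siCont vehicle replicate 3. The lower 1 was SLC29A2, a nucleoside transporter, with means of 332 and 386 for siCont and 222 and 174 for siSTIM1 (-0.57 ± 0.12, adjusted p = 0.00724).

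The log2 value of the interaction does not use the Par libraries, but its standard error and p-value do. Without siSTIM1, Par cells held far less STIM1 mRNA than GemR cells with siCont (457 ± 20.6 with vehicle and 431 ± 15.1 with thapsigargin, SD, n = 3). With siSTIM1 the GemR response lay nearer to that of Par than with siCont for 281 of the 380 genes with a lower response (73.9%) and for 170 of the 197 with a higher response (86.3%), against 48.9% of all tested genes. This comparison was chosen after the values were seen, and it was made without a test. Its genes were chosen for a difference between the 2 GemR responses, so 48.9% is no fair background for them. Among the lower genes the median response was 0.90 with siCont, 0.14 with siSTIM1 and 0.17 in Par. Among the higher genes it was -0.38, 0.18 and 0.25. Of the 37 genes with responses in opposite directions, 17 passed in Par (where 40.1% of all genes did) in the direction of siSTIM1, 2 in the direction of siCont and 18 not at all. SOX4, SOX2, CXCR4, NRARP and RHOV fell in Par by 1.61, 2.32, 1.47, 0.87 and 1.69 on the log2 scale, near their values with siSTIM1. RRAD and NFATC1 had Par responses of 0.48 and 0.08 that did not pass, against 5.91 and 2.16 with siCont in GemR. TRIB3 and DDIT3 rose in Par by 3.27 and 5.29, more than in GemR with either siRNA. ELF3 rose in Par by 0.91 (adjusted p = 1.0e-05), between 0.02 with siSTIM1 and 2.18 with siCont. Of 74 called genes described with values, 11 had a Par response nearer to that with siCont: EGR3, TRIB1, DUSP1, IER3, SLC2A1, SLC7A5, SLC29A2, ASNS, CDH5, FAM111B and ID3. CALR, TK2 and SRSF7 were not in this count. TRIB1 rose by 1.87 in Par, 2.04 with siCont and 0.69 with siSTIM1, and FAM111B fell by 3.57, 2.81 and 1.71. Par and GemR differ in drug exposure and much else, and the part of STIM1 in this likeness was not tested.

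**Figure D4:**
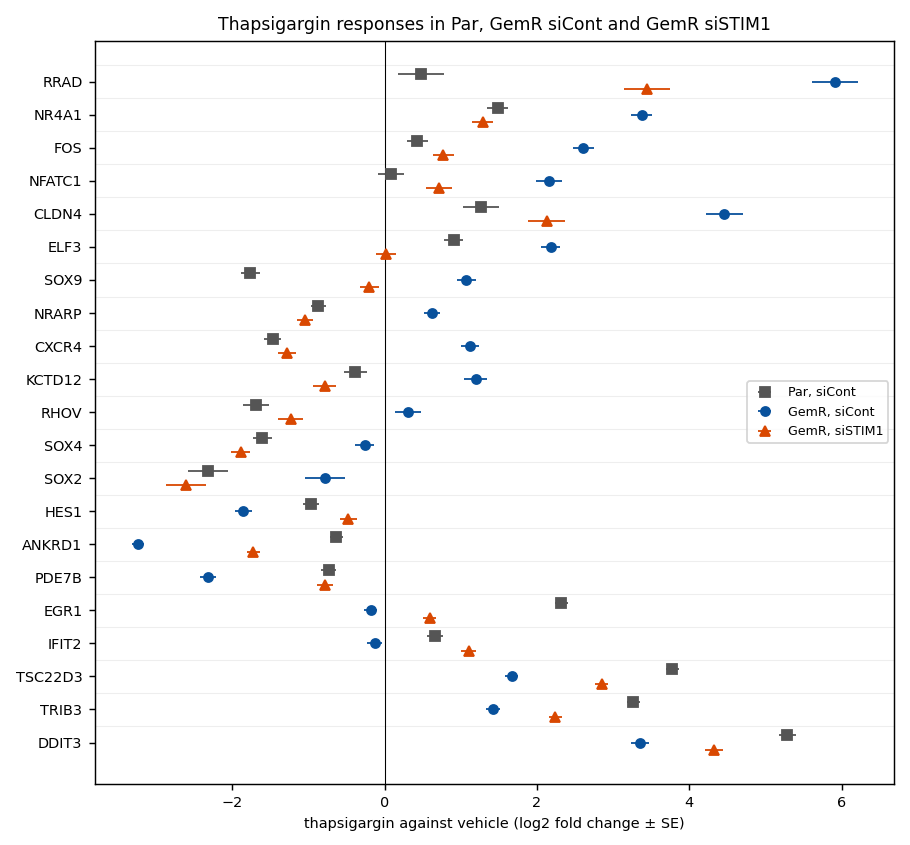
Thapsigargin log2 fold change ± SE of 21 genes in Par with siCont (grey squares), GemR with siCont (blue circles) and GemR with siSTIM1 (orange triangles), from limma over 3 libraries per group. For SOX4, SOX2, CXCR4, NRARP, RHOV and PDE7B the triangle lies close to the square, and for RRAD, NFATC1, FOS and CLDN4 the circle stands furthest to the right.

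At least 2-fold changes in Par numbered 833 genes (6.36%). The 628 genes that rose at least 2-fold in Par had a median response of 1.39 there, of 1.07 in GemR with siCont and of 0.92 with siSTIM1, and 59 of them were lower and 33 higher in the interaction (14.6% called, against 4.41% of all genes). The 205 genes that fell at least 2-fold in Par had medians of -1.22, -0.59 and -0.78, with 20 lower and 4 higher (11.7%). These values are descriptions of genes chosen by the Par libraries.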

How the data were processed

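mRNA was sequenced from 18 libraries, 6 groups of 3. Per the submitters' processing notes STAR 2.6.0c, HTSeq 0.11.1, DESeq2 and the build hg38 were used. Which gene annotation was used was not given in the sources used here. Deposited signal values are normalized counts per gene, and these values step in whole reads divided by 1 factor per library. The authors' deposited tables of each comparison also give log2 fold changes and adjusted p-values; their log2 fold changes were used only for signs.

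A mean of at least 10 kept 13096 of 26485 genes, which were fitted as log2(normalized count + 1) with limma 3.58.1 (R 4.3.3, trend, 1 mean per group over all 18 libraries, 12 residual degrees of freedom). The tests were two-sided, with Benjamini-Hochberg adjustment over all genes tested. Whole reads were recovered (100.0% of values within 0.01 of a whole number) and tested with edgeR 4.0.16 (quasi-likelihood, TMM) and DESeq2 1.42.0 as alternatives on 17 libraries, without siSTIM1 vehicle replicate 3, whose step lies too near 1 to check. Transcript lengths came from GENCODE 29. In simulated data for this comparison (13096 genes per run, runs pooled), added log2 differences of 0.5, 1 and 2 were recovered in 29%, 91.4% and 100% of cases, and 22 of 38688 unchanged genes were called. Differences were added only to genes with a mean of at least 50 and no low group. The simulated libraries were independent and held no length trend. The shares therefore need not hold for lower genes or for the real libraries.

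The comparison and the gene lists were chosen with earlier results of these data known. Genes were named by rule: STIM1; the 12 highest and 12 lowest interactions with a group mean of at least 50; up to 4 called and 2 other members of each list; and 3 for each shape of response. Others were chosen after their values were seen, among them NR4A2, NR4A3, KLF4, KLF10, EGR1, EGR2, RCAN1, NFATC2, ORAI3, HOMER1, CSF1, CLDN1, CLDN3, SLC7A5, STC2, ASNS, MTHFD2, GARS, CHAC1, ATF4, HERPUD1 and BCL2L1. RefSeq promoters (GRCh38.p14, 250 bases) matched 9784 tested genes, and motif shares are over all their windows; the printed ones come only from genes whose starts lie within 100 bases of each other, a limit added after seeing the promoter table. The values of some members and markers are not reported here. Alternatives were another pseudocount, filter, scaling, prior, set of libraries, replicate block, length correction and count test, and leaving out each library.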

Additional observations from a re-analysis of the deposited data

Results flagged for a closer look

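For 8 of the genes described thapsigargin moved expression past the threshold in opposite directions with the 2 siRNAs, and the difference itself passed limma's test of the interaction. CXCR4 rose by 1.12 with siCont and fell by 1.29 with siSTIM1 on the log2 scale, a difference of -2.41 (adjusted p = 4.1e-08). KCTD12 rose by 1.20 and fell by 0.79 (difference -1.99, adjusted p = 1.2e-05). NRARP rose by 0.62 and fell by 1.04 (difference -1.67, adjusted p = 1.2e-06). DYRK2, DUSP7, LGR4 and SLC29A2 also rose with siCont and fell with siSTIM1, with smaller differences of -1.33, -1.06, -0.96 and -0.57 (adjusted p = 0.0024, 2.5e-06, 0.00382 and 0.00724). TXNIP fell by 0.70 with siCont and rose by 0.42 with siSTIM1 (difference 1.12, adjusted p = 0.00309), with overlap between vehicle and thapsigargin libraries in siSTIM1. In each of these genes but TXNIP the 3 thapsigargin libraries lay on 1 side of the 3 vehicle libraries with either siRNA. The genes were picked because both responses passed in these same libraries, so this separation is no further support. In Par, CXCR4 and NRARP fell by 1.47 and 0.87, TXNIP rose by 1.02, and KCTD12 had a log2 fold change of -0.39 (adjusted p = 0.05).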

How the results depend on the processing

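The count of 577 genes was 317 with only the 12 GemR libraries in the fit, 346 in edgeR, 3500 when the slope of each library against transcript length entered as a term and 900 with a length spline removed, the last chosen after seeing the data. It ranged from 323 to 1216 when each library was left out in turn. It was 441 to 679 under the other settings. Of 74 named genes that passed and were followed through the settings, 64 passed in all of up to 27 alternatives. The other 10 missed the threshold in at least 1, and 0 of the 74 changed sign. Sizes moved either way without both libraries that fell with length. ABCA1 went from -2.24 to -1.67 and DYRK2 from -1.33 to -0.92, while CLDN4 went from -2.33 to -2.81 and CXCL3 from -1.89 to -2.45. The 74 leave out some named calls, among them CALR, TK2 and SRSF7. CALR and TK2 were lost without any 1 of several libraries, as given above. Among genes that had not passed, the interaction of RCAN1 was 0.013 and that of HSPA5 -0.223 after quantile normalization. That of ATF4 was 0.018 after median centring and -0.105 to 0.048 when each library was left out in turn, and that of HERPUD1 was -0.002 without both libraries that fell with length. The cause was not tested. The median siCont response of genes that fell at least 2-fold in Par was -0.539 with a pseudocount of 5, -0.670 with a minimum mean of 50, -0.631 after median centring and -0.664 after quantile normalization, and the siSTIM1 median was -0.715 with a pseudocount of 5.

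Replicate numbers were not taken to pair the libraries: deviations of same-numbered libraries had correlations of -0.177 to 0.491. With the replicate block 679 genes passed, and all of the 74 genes followed above did. SARAF (adjusted p = 0.0452) and HSPA5 (adjusted p = 0.0322), which had not passed, did so with the block. A missed threshold does not show equal responses. Depth per library allows no statement on genes under a mean of 10, which were not tested.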

Other observations

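Some genes outside the lists, chosen after their values were seen, had a higher response with siSTIM1. Of 3 tested ID genes 2 were higher, and ID2 had an interaction of -0.784 that did not pass. ID1 and ID3, which encode inhibitors of helix-loop-helix transcription factors, fell with siCont by 0.81 and 0.75 on the log2 scale. With siSTIM1 their log2 fold changes were 0.01 and 0.16, below the threshold, and the interactions were 0.82 (adjusted p = 0.0108) and 0.92 (adjusted p = 0.00525). The baseline differed too: the mean count of ID1 was 7718 with siCont and vehicle and 3297 with siSTIM1 and vehicle, and the means with thapsigargin were 4383 and 3360.

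Of 11 tested SRSF genes, which encode splicing factors of the serine-arginine family, 4 had a higher and 0 a lower response, and the interactions ranged from 0.08 to 0.61. That of SRSF7, which passed, was 0.552. The interaction was 0.57 for SRSF3, 0.50 for SRSF5 and 0.61 for SRSF6, and 0.46 for TRA2A, a related splicing regulator (adjusted p of 7.8e-04 to 0.0133 in limma). SRSF3 fell from a mean of 7125 to 4770 with siCont and had means of 6048 and 6086 with siSTIM1. Without both libraries that fell with transcript length the interactions of SRSF3, SRSF5, SRSF6 and TRA2A were 0.39, 0.36, 0.53 and 0.36, and each passed. With only the 12 GemR libraries in the fit SRSF3 had adjusted p = 0.0515 and ID1 had 0.0541.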
